A study of Mus musculus with 15 samples.

Results

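The cavity of the uterus is lined by luminal epithelium (LE), and its glands are built of glandular epithelium (GE). Messenger RNA levels were compared between 3 LE libraries from mice with Notch1 overexpression, the group titled U-OEx, and 3 GE libraries from wild-type mice, out of 15 libraries in the whole series. All 6 libraries were of total RNA from uterine epithelium on day 4. The 3 wild-type LE libraries of the same day served as the second reference. The labels give the genotype of U-OEx only as overexpression of Notch1; they name neither the promoter that drives it nor the cells in which it acts, and U-OEx is used here as a name. They also do not say whether replicates came from separate animals, so every p-value below measures the spread between these samples, which may be technical. The comparison asks which gland genes the Notch1-overexpressing lumen reached and which it did not.

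Uterine glands are an outpocketing of the lumen that secretes into it. Foxa2 is the transcription factor that marks the glands and on which their formation and secretion depend, and Lif is the gland cytokine that is needed for implantation. Notch1 is a receptor that is cut when it binds a ligand on a neighbouring cell; its inner part then enters the nucleus and switches on genes together with the DNA-binding protein RBPJ. Notch1 itself was analysed in the U-OEx tables alone, where its deposited value was 2913, 3524 and 2789 in the 3 libraries (3075 ± 393, SD, n = 3). No reference level in the wild-type epithelia was analysed, so the overexpression was not checked.

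Gland markers in the U-OEx lumen included genes above the glands, genes between the wild-type lumen and the glands, and genes without reads. The promoters of 1 gene of each of these are shown so that the results below can be set beside the sequence: Olfm4 (chr14:80000052-80000301, + strand), Lif (chr11:4257318-4257567, + strand) and Prss29 (chr17:25318404-25318653, + strand). Each is the 250 bases before the start of the gene in RefSeq on GRCm38.p6. Capitals mark the core of the RBPJ motif, TGGGAA or its reverse complement TTCCCA.
Olfm4: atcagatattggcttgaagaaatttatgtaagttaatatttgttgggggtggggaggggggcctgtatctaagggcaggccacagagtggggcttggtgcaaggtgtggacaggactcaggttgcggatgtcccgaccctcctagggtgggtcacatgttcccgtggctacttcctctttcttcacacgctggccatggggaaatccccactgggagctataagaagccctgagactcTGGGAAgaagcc
Lif: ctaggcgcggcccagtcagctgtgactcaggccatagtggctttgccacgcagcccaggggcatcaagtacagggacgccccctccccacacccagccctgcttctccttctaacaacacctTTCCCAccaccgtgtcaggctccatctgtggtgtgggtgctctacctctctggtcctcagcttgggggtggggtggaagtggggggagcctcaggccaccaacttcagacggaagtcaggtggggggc
Prss29: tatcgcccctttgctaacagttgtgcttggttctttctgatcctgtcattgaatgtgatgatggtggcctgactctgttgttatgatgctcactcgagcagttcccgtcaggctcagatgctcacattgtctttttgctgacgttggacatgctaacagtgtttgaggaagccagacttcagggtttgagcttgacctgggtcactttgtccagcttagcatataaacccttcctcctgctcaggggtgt
Olfm4 held 1 match, 12 bases before the start, Lif held 1 match, 128 bases before the start on the opposite strand, and Prss29 held none. The core is common: it stood in 7094 of 32851 promoters of this length (21.6%). Promoters of 15 of the 18 gland markers were searched, and 5 of these 19 promoters held it. Spink1, Ttr and Sox9 were not among the markers searched, so the counts do not cover them. The core of forkhead factors such as Foxa2 (TGTTTAC or TGTTTGC, both strands) stood in 2396 of all promoters (7.29%) and in 0 of these 19. Besides Olfm4 and Lif, the RBPJ core stood in promoters of Fgfr2, Prom1 and Wfdc3, the last with 2 matches. No promoter of Foxa2 or Cxcl15 held it, so the 3 promoters shown do not represent the other markers. A match describes the letters of this window and is no evidence of binding.

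Values are read counts recovered from the deposited tables and rescaled together, so that they compare libraries for 1 gene and are not divided by gene length. The tables of the wild-type mice list 6414 genes, all at least 2-fold apart between GE and LE, those of U-OEx list 27946, and 6204 genes stand in both. Reads in listed genes numbered 3818041 to 4420167 per wild-type GE library, 4573726 to 4797424 per wild-type LE library and 13541644 to 14981505 per U-OEx LE library, of which 3140826 to 3638011 lay in the shared genes. Differences are given as log2 of U-OEx LE over wild-type GE after 1 was added to each value, which understates the change of genes with few reads. A gene is called where limma's adjusted p-value over all genes tested was under 0.05. Of 6022 shared genes tested, 4284 were called (71.1%), 2015 higher in U-OEx LE (33.5%) and 2269 lower (37.7%). The 3 values of each group did not overlap for 4565 genes (75.8%), and the median difference was -0.13. The gene list favours differences between the epithelia, and the deposited scale moved that median to -0.33 and quantile normalization to 0.00, so small differences depend on the scaling.

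Both the wild-type GE and the wild-type LE libraries carried RNA of cells other than epithelium. In wild-type GE the summed value of 17 stromal markers ran from 48212 to 127627, against 751 to 12151 in wild-type LE, where replicate 2 was the highest, and 10617 to 25681 in U-OEx LE. Most of the U-OEx sum was Postn, and the other 16 markers summed to 2537 to 3845 there. Smooth muscle markers summed to 4546 to 7458 in wild-type GE and 501 to 747 in U-OEx LE, and markers of endothelial and mural cells to 7069 to 11085 and 687 to 891. In U-OEx LE, replicate 2 had the lowest deposited values of the leukocyte genes Ptprc (441, against 1570 and 2705) and S100a8 (456, against 6694 and 10773). In such bulk samples, fewer cells of a type cannot be told apart from less RNA per cell.

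Of the 5 genes used as gland identifiers, 3 lay between the wild-type lumen and the glands, 1 had no reads and 1 exceeded the glands. Over the longer list of 18 gland markers, 14 were tested. Of these, 11 were lower in U-OEx LE than in wild-type GE, 2 were higher and 1 did not pass, with a median of -2.87 against -0.13 over all genes. The 11 lower are 78.6% of the list, beside 37.7% of all genes, and the members were known to differ between the wild-type epithelia. Against the wild-type lumen, 7 of 13 tested markers were higher and 3 lower, beside 30.9% and 25.6% (56.5% in either direction) of all 5982 genes tested.

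Foxa2 had values of 758, 523 and 495 in U-OEx LE, 2190, 2474 and 2221 in wild-type GE, and 14.7, 4.38 and 11.9 in wild-type LE. The 3 groups were separate, with every U-OEx LE library above the wild-type lumen and below the glands. The U-OEx lumen held 25.8% of the gland level (log2 difference -1.98 ± 0.18, SE, limma adjusted p = 3.3e-05) and stood 5.82 ± 0.48 above the wild-type lumen (limma adjusted p = 5.6e-05).

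Lif had values of 616, 448 and 919 in U-OEx LE, 6286, 4498 and 7892 in wild-type GE and 21.0, 56.9 and 41.2 in wild-type LE. Its groups were separate too, and the U-OEx lumen reached 10.6% of the gland level (log2 difference -3.26 ± 0.29, limma adjusted p = 2.7e-05). Cxcl15, a chemokine secreted by the glands, had values of 179, 152 and 78.8 in U-OEx LE, 4697, 3873 and 4217 in wild-type GE and at most 9.45 in wild-type LE. It therefore lay above the lumen (3.96 ± 0.47) and at 3.20% of the gland level (-5.03 ± 0.29, limma adjusted p = 2.9e-06).

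Spink1, an inhibitor of trypsin, had 0 reads in all 3 U-OEx LE libraries and values of 10437, 7910 and 12426 in wild-type GE. It was at least 3314-fold lower, a bound taken at 3 reads per library. Wild-type LE held 1.05, 18.6 and 6.51, so the U-OEx lumen gave no reads of a gene that the normal lumen showed at a trace.

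Olfm4, a secreted glycoprotein known from intestinal crypts and from neutrophils, went the other way. It had values of 53524, 19782 and 24896 in U-OEx LE, 326, 335 and 219 in wild-type GE, and no read in wild-type LE. The lowest U-OEx LE library exceeded the highest gland library by a wide margin, and the difference was 6.69 ± 0.36 (limma adjusted p = 2.1e-06).

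**Figure D1:**
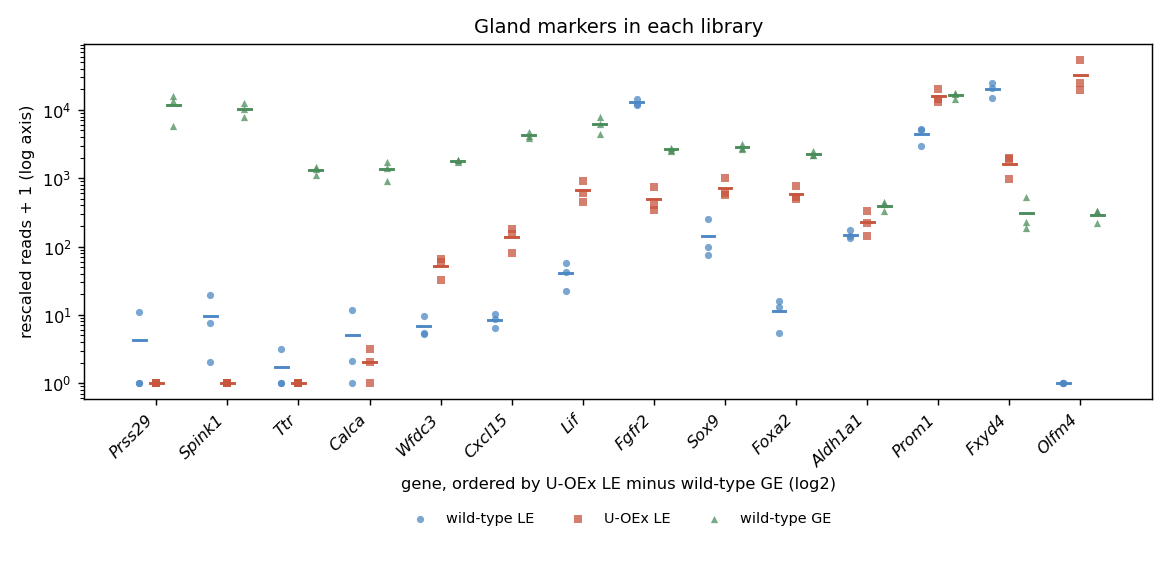
Rescaled reads of the tested gland markers in each library, on a log axis, for the 3 wild-type LE, 3 U-OEx LE and 3 wild-type GE libraries; points are libraries and bars are group means. Foxa2, Lif and Cxcl15 of U-OEx LE lie between the reference groups, Prom1 lies at the gland level, Olfm4 lies above it, and Spink1, Prss29 and Ttr have no reads.

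The markers that the U-OEx lumen reached least encode secreted products of the glands, as Spink1 does. Prss29, a serine protease secreted around implantation, had 0 reads in U-OEx LE and values of 13612, 5773 and 16135 in wild-type GE, at least 3826-fold lower; it has a close copy, Prss28, and reads may be split between them. Ttr, which carries thyroid hormone, had 0 reads as well and was at least 424-fold lower than the 1125 to 1439 of the glands. Calca, which encodes calcitonin, had 1.03, 0 and 2.16 in U-OEx LE and 903 to 1755 in wild-type GE. These 3 genes were thus no higher in U-OEx LE than in the wild-type lumen, where their highest value was 10.9. Wfdc3, of the whey acidic protein family, stood at 58.6, 31.6 and 64.8 in U-OEx LE, 2.84% of the glands' 1817 ± 55.1 (-5.17 ± 0.27, limma adjusted p = 1.9e-06).

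Among the markers that are not secreted, Sox9, a transcription factor of gland progenitors, had values of 1001, 560 and 602 against 2647, 2812 and 3208 in the glands, with no overlap (-2.05 ± 0.23, limma adjusted p = 8.6e-05). Prom1, a membrane protein, was the only tested marker that did not pass. Its values were 20056, 14472 and 13246 in U-OEx LE and 17398, 14240 and 17193 in wild-type GE, which overlap, and the 95% interval of the difference ran from -0.47 to 0.37; wild-type LE held 2967 to 5264. Aldh1a1, which makes retinoic acid, was lower by 0.85 ± 0.30 (limma adjusted p = 0.034), and this call was lost without wild-type GE replicate 1 (adjusted p = 0.10) or 2 (0.11) and without U-OEx LE replicate 2 (0.055) or 3 (0.080).

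The remaining markers, Fgfr2 and Fxyd4, are listed as gland markers but were higher in the wild-type lumen in these libraries. Fgfr2, a receptor for fibroblast growth factors, had means of 12861 in wild-type LE, 2646 in wild-type GE and 502 in U-OEx LE, so the U-OEx lumen lay below both. Fxyd4, which regulates the sodium pump, was 1617 ± 571 in U-OEx LE, between 311 ± 184 in wild-type GE and 20375 ± 4926 in wild-type LE.

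Across all genes that were higher in the glands than in the lumen of wild-type mice, the U-OEx lumen fell short more often than it reached them. These genes had been chosen on the same wild-type GE libraries and on the wild-type LE libraries. Their counts against either group describe the list and are no independent test. Of 3443 tested, 1911 were lower in U-OEx LE than in wild-type GE, 549 were higher and 983 did not pass, with a median of -1.20. The lower ones are 55.5% and the higher ones 15.9%, beside 37.7% and 33.5% of all genes. A gene that does not pass need not be equal: the 95% interval lay inside a 2-fold difference for 373. These are 10.8%, near the 11.9% of all genes. Compared with the wild-type lumen instead, 1493 of 3221 were higher in U-OEx LE and 206 lower, beside 30.9% and 25.6% of all 5982 genes tested. The choice of genes low in wild-type LE favours a higher call here. The 2 comparisons share the U-OEx LE libraries.

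Placed on a log2 scale where 0 is the wild-type LE mean and 1 the wild-type GE mean, the median gland gene stood at 0.469 over 3366 genes. The U-OEx LE libraries taken singly gave 0.465, 0.483 and 0.510. The genes did not cluster around that median: 855 lay below the wild-type lumen, 884 in the lower part of the way up to 0.5, 715 between 0.5 and 1, and 912 above the glands.

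The shares differed between bins of the wild-type ratio. The bins were formed on the same wild-type GE libraries, so a larger ratio by itself favours a lower call, and the part of that choice in the shares was not tested. Of genes with a wild-type GE over LE ratio of 2 to 4, 44.6% were lower in U-OEx LE than in wild-type GE, of those with 4 to 16, 55.7%, of those with 16 to 64, 77.1%, and of those at 64 or more, 58.3%. The last bin holds many genes with few reads, and 34.4% of it did not pass. The share that was higher in U-OEx LE was 22.6%, 15.7%, 8.0% and 7.32% in the same order. Of 2292 tested genes that were at least 4-fold higher in the wild-type glands, 99 had 0 reads in all 3 U-OEx LE libraries and 111 had a 95% interval inside 2-fold. Over all 6022 genes tested, that interval lay inside 2-fold for 715 (11.9%).

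**Figure D2:**
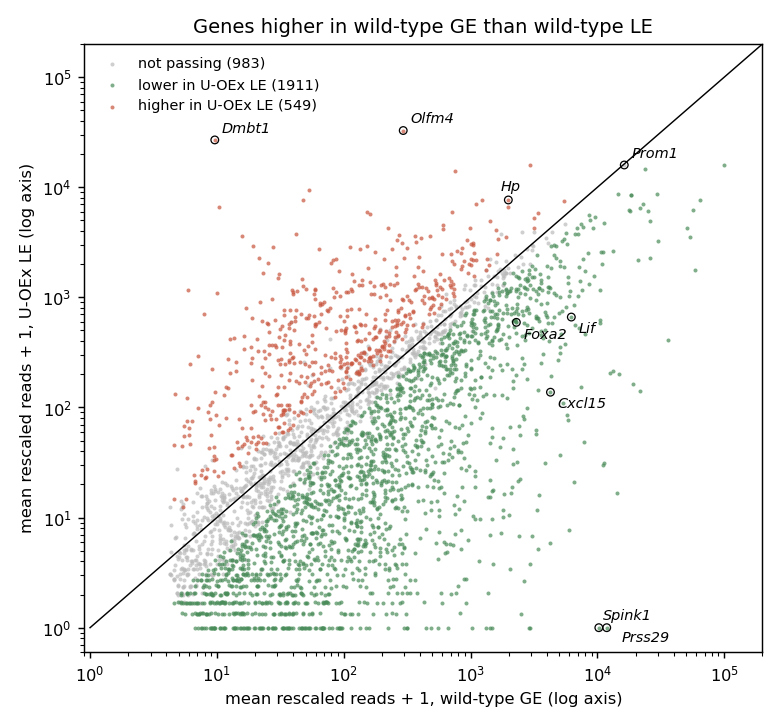
Mean rescaled reads of each gene higher in wild-type GE, with wild-type GE on the x axis and U-OEx LE on the y axis, both logarithmic; the line marks equality. Of the circled genes, Spink1 and Prss29 lie on the lower edge with no reads in U-OEx LE, Foxa2, Lif and Cxcl15 below the line, Prom1 on it, and Hp, Olfm4 and Dmbt1 above it.

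Some gland genes did match the gland level. The following were chosen after their values were seen, from the genes at least 4-fold higher in the wild-type glands whose 95% interval lay inside 2-fold. Gkn3, a secreted protein first known from the stomach, had values of 617, 524 and 590 in U-OEx LE and 551, 554 and 624 in wild-type GE, against at most 3.26 in wild-type LE. The groups overlapped, with a log2 difference of 0.00 ± 0.14. Hspg2, the basement membrane proteoglycan perlecan, stood at 2757 ± 254 and 2763 ± 790, and the wild-type lumen at 424 ± 286. Ern1, the sensor kinase of the unfolded protein response, was 3435 ± 176 in U-OEx LE and 3904 ± 708 in wild-type GE.

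Other genes passed the gland level, also chosen after their values were seen. Hp, which encodes the haemoglobin-binding protein haptoglobin, had values of 9312, 6386 and 7288 in U-OEx LE, 2133, 1564 and 2254 in wild-type GE and at most 3.28 in wild-type LE, so that all U-OEx LE libraries exceeded the glands (1.95 ± 0.20, limma adjusted p = 4.9e-05). Tgm2, which crosslinks proteins, stood at 21690, 10624 and 15445, again above every gland library (2436 to 3500). Stc2, the secreted glycoprotein stanniocalcin 2, was 4913 ± 474 against 1417 ± 175. Padi1, which converts arginine in proteins to citrulline, was 5886 ± 273 against 3396 ± 1277 (0.87 ± 0.27, limma adjusted p = 0.020), and this call was lost on the deposited scale (0.67, adjusted p = 0.051) and without U-OEx LE replicate 1 (adjusted p = 0.059).

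A further set fell far short of the glands, likewise picked on its values. Dkk3, a secreted protein of the Dickkopf family, had values of 192, 266 and 186 in U-OEx LE and 12378, 11401 and 15899 in wild-type GE, 1.62% of the gland level. Ryr3, an intracellular calcium release channel, was 6.76 ± 4.41 against 5968 ± 485, no higher than the 10.9 ± 8.33 of the wild-type lumen (limma adjusted p = 0.61 against it). The keratins Krt83 and Krt23 held 4.93 ± 5.17 and 36.1 ± 12.7, against 4231 ± 1135 and 5084 ± 1822 in the glands. Ntn1, the guidance protein netrin 1, went part of the way, at 1018 ± 157 against 6994 ± 1142 and 32.0 ± 2.65 in the wild-type lumen. Aqp5, a water channel, had 2172, 1355 and 871 in U-OEx LE, which overlapped the 1875 to 3147 of the glands and exceeded the at most 30.5 of the wild-type lumen. Its lower value passed the test (-0.94 ± 0.34, limma adjusted p = 0.036), but not in 1 fit over the 9 libraries (adjusted p = 0.17), nor without wild-type GE replicate 1 (0.12) or 3 (0.12) or U-OEx LE replicate 2 (0.067) or 3 (0.10).

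By size of the difference alone, the 10 genes furthest below the glands were Prss29, Spink1, Cyp3a59, Gm7298, Gm32592, Cyp3a57, Htr1b, Ttr, Mme and Tshr. Of these, 7 had 0 reads in U-OEx LE. Htr1b, a serotonin receptor, was at least 474-fold lower, and the drug-metabolising cytochromes Cyp3a59 and Cyp3a57, near-identical copies whose reads may be split, at least 935-fold and 463-fold. Tshr, the thyrotropin receptor, held 1.03, 3.95 and 0 against 2517 to 2819. Mme, a membrane peptidase also called neprilysin, was the exception in kind, since the wild-type lumen expresses it above the glands: 41706, 31973 and 53919 there, 23251, 17445 and 17384 in wild-type GE, and 25.7, 8.89 and 11.9 in U-OEx LE. All 3 U-OEx LE libraries of Mme thus lay far below both references. Sult1d1, a sulfotransferase on the list of steroid-responsive genes, showed the same, at 15.9 ± 11.1 in U-OEx LE against 14238 ± 967 in the glands and 5096 ± 1963 in the lumen.

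Of the 15 most read genes with at least a 4-fold excess in wild-type GE, all 15 were lower in U-OEx LE. They were chosen for high values in the same wild-type GE libraries, which favours that outcome, so the count is a description. Of all genes tested, 37.7% were lower, as were 1398 of the 2292 tested genes with at least that excess. Il6st, which encodes gp130, the signal-transducing partner of the Lif receptor, had values of 4421, 3167 and 2998 in U-OEx LE and 49065, 50004 and 62402 in wild-type GE. It matched the wild-type lumen instead (2462 to 4254; difference 0.12 ± 0.26, limma adjusted p = 0.71). Slc1a5, a glutamine transporter, was 7002 ± 835 against 23054 ± 1168, and the carbonic anhydrase Car12 2194 ± 268 against 20896 ± 7394. Gng12, a G protein subunit, and Rbbp7, a histone-binding protein, stood at 10.6% and 19.2% of the gland level. Hspa1b, a heat shock protein with a near-identical copy in Hspa1a, was uneven within U-OEx LE, with 6024, 4981 and 36629 against 92438 to 105816. Col1a1, Col3a1 and Col1a2, which stand in the same set of 15, are stromal collagens: Col1a1 was 141 ± 74.1 against 21682 ± 12824.

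Genes of the Lif axis other than Lif were mixed. Lifr, the Lif receptor, was higher in U-OEx LE than in the glands, at 1093, 1552 and 1000 against 542, 369 and 590 (1.28 ± 0.24, limma adjusted p = 0.0015), and below the wild-type lumen at 1641 to 4135. Egr1, an immediate early gene that Lif can induce, was lower by 2.44 ± 0.39. Of 5 tested members of that list, 3 were lower (60%), 1 higher (20%) and 1 did not pass, beside 37.7% and 33.5% of all genes.

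Of 21 tested transcription factors of the glands, 12 were lower, 6 higher and 3 did not pass (median -1.76). The lower ones are 57.1% and the higher ones 28.6%, beside 37.7% and 33.5% of all genes. The list is not restricted to the glands in these libraries. Its summed value was 49672 to 60632 in wild-type LE and 38173 to 40331 in wild-type GE. Spdef, a factor of secretory cells, had values of 168, 55.3 and 122 in U-OEx LE and 323, 349 and 397 in wild-type GE, with a single read in the 3 wild-type LE libraries together. Like Foxa2, it lay between the 2 reference groups. Prox1, a homeobox factor, was 39.1 ± 19.9 against 346 ± 171. Xbp1, which drives the secretory apparatus, was lower by 0.94 ± 0.32 (limma adjusted p = 0.030), a call lost with quantile normalization (-0.74, adjusted p = 0.062), with edgeR (0.054), in 1 fit over the 9 libraries (0.12) and without any 1 of the 3 wild-type GE libraries (0.075 to 0.088).

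The 6 factors that were higher included Elf3 and Id1. Elf3, an epithelial factor of the ETS family, had values of 12928, 12432 and 13319 in U-OEx LE, above the 1202 to 1410 of the glands and the 3857 to 5055 of the wild-type lumen. Id1, an inhibitor of helix-loop-helix factors, was 3134 ± 507 against 1048 ± 248, while its relative Id3 matched the glands at 1254 ± 519 against 1206 ± 179 (-0.04 ± 0.33). Hoxa10, next to Hoxa11 the lowest of the list against the glands, had 3.08, 5.92 and 2.16 in U-OEx LE and 604, 830 and 442 in wild-type GE. Hoxa10 is also a stromal gene and stands on the stromal list, whose sum was highest in the same 3 GE libraries. Its part in this difference was not tested.

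Of 16 tested members of the secretory path, which folds and exports proteins, 11 were lower, 1 higher and 4 did not pass, with a median of -0.72. The lower ones are 68.8%, beside 37.7% of all genes. On the scale from the wild-type lumen at 0 to the glands at 1, the median was 0.518, and 0.495 for the gland markers; the lists were not tested against each other. Hspa5, the main chaperone of the endoplasmic reticulum, had values of 10371, 6950 and 8284 in U-OEx LE, 16560, 16618 and 21586 in wild-type GE and 3291, 6290 and 4728 in wild-type LE, so it too lay in between. Herpud1 and Pdia5, which act in the degradation and folding of proteins there, overlapped the glands: 1675 ± 287 against 1895 ± 369 and 204 ± 59.6 against 236 ± 18.1. Sec11c, a subunit of signal peptidase, exceeded them at 3640, 2827 and 3789 against 1448 to 1754 (1.06 ± 0.16, limma adjusted p = 4.6e-04). Sec24d, a coat protein of transport vesicles, was the exception in the other direction, at 252 ± 85.2 against 3611 ± 547, below the 1647 ± 279 of the wild-type lumen.

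**Figure D3:**
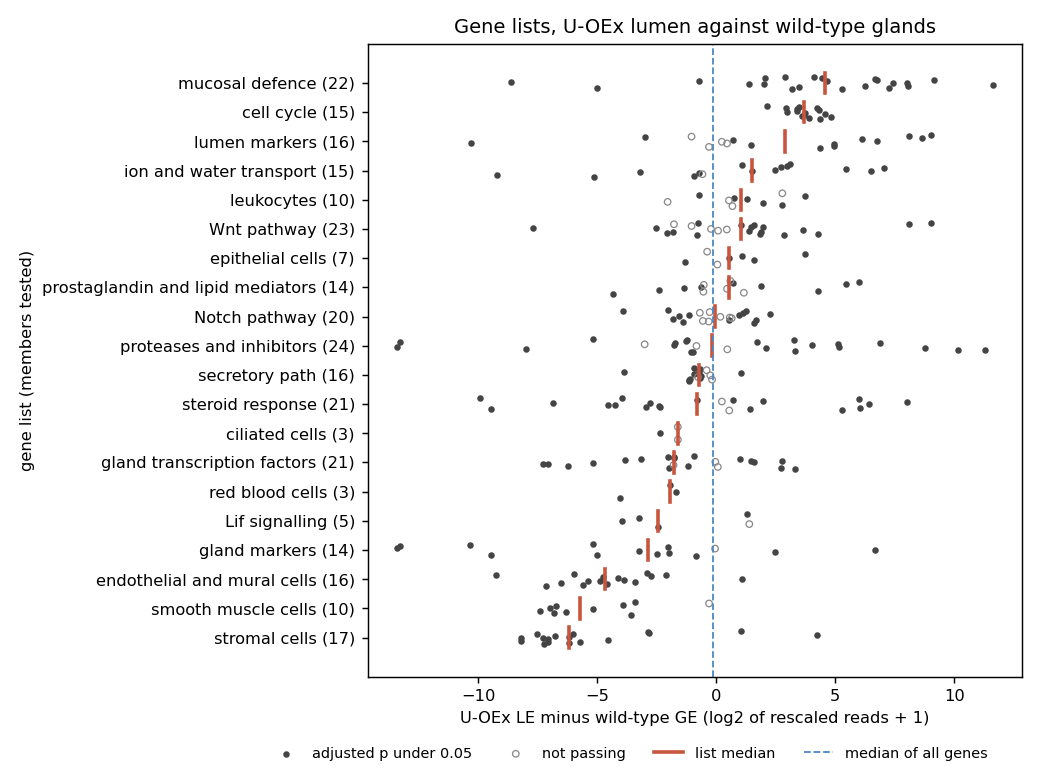
Tested members of each gene list by log2 difference, U-OEx LE minus wild-type GE; each point is a gene and the bar is the list's median. The gland markers, gland transcription factors and secretory path have medians below 0, and mucosal defence and the cell cycle have medians above it.

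Genes of the lumen lay mostly above the glands in U-OEx LE and often below the wild-type lumen. Over the 2579 tested genes that were higher in the wild-type lumen, 1466 were higher in U-OEx LE than in wild-type GE, 358 lower and 755 did not pass (median 1.11). The higher ones are 56.8%, beside 33.5% of all genes, and the class was chosen on the same wild-type libraries. Against wild-type LE, 1323 of 2761 were lower in U-OEx LE and 358 higher (median -1.04), beside 25.6% and 30.9% of all genes. The median position was 0.435, where 0 is the wild-type lumen and 1 the glands. Of 20 lumen markers, 16 were tested, 10 were higher than in the glands, 2 lower and 4 did not pass (median 2.90). The higher ones are 62.5% and the lower ones 12.5%, beside 33.5% and 37.7% of all genes. Against wild-type LE, 7 of the 16 were higher and 7 lower, beside 30.9% and 25.6% of all genes.

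Wnt7a, a luminal Wnt ligand that is needed for gland formation, had values of 1503, 3123 and 1773 in U-OEx LE, 7.66, 3.63 and 9.26 in wild-type GE and 3000.0, 5350.0 and 3455 in wild-type LE. It was 8.09 ± 0.38 above the glands, while the U-OEx LE values overlapped the lower end of the normal lumen and differed from it by -0.91 ± 0.34 on the log2 scale (limma adjusted p = 0.049). Wnt7b, its relative, was 2975 ± 546 in U-OEx LE against 6.21 ± 4.93 in the glands. Krt19, an epithelial keratin, was 22531 ± 5247 in U-OEx LE and 18410 ± 6193 in wild-type LE, against 1677 ± 369 in the glands. These 3 genes were far above the glands in U-OEx LE, but the lumen list as a whole did not place U-OEx LE with the wild-type lumen: its median position was 0.324, and Calb1, Lpar3, Wnt11 and Mme lay near or below the gland level. On Foxa2 and Cxcl15 the wild-type GE libraries were far above wild-type LE.

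Other luminal markers stood near the gland level. Calb1, a calcium-binding protein of the receptive lumen, had values of 284, 280 and 235 in U-OEx LE, 543, 181 and 358 in wild-type GE, and 45622, 19035 and 34751 in wild-type LE. The first 2 groups overlapped (-0.30 ± 0.36), while U-OEx LE lay 6.87 ± 0.32 below the lumen (limma adjusted p = 9.4e-06); without wild-type GE replicate 2 the value was -0.73 (adjusted p = 0.033). Wnt11, a Wnt ligand, was 37.0, 230 and 61.5 in U-OEx LE against 123 to 255 in the glands and 7982 to 11674 in the lumen. It did not pass against the glands (-1.04 ± 0.63, limma adjusted p = 0.17) unless U-OEx LE replicate 2 was left out (-1.79, adjusted p = 0.0039). Lpar3, a lysophosphatidic acid receptor needed for embryo spacing, was 297 ± 50.9 against 217 ± 44.9 and 6907 ± 704 in the lumen; it did not pass against the glands (0.45 ± 0.22, adjusted p = 0.092), and passed marginally without wild-type GE replicate 1 (adjusted p = 0.0498) or U-OEx LE replicate 3 (0.047). Msx2, a homeobox factor on the lumen list that the wild-type glands expressed more, was 688 ± 147 in U-OEx LE, 583 ± 114 in wild-type GE and 48.5 ± 44.5 in wild-type LE.

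**Figure D4:**
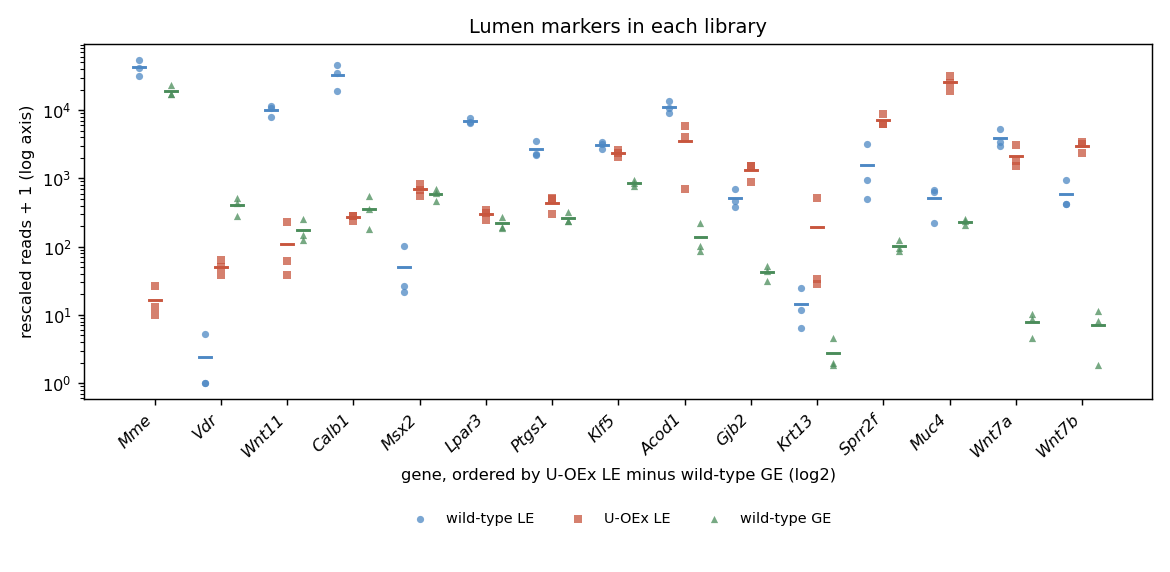
Rescaled reads of all but 1 of the tested lumen markers in each library, on a log axis, in the 3 groups; points are libraries and bars are group means. Wnt7a and Wnt7b of U-OEx LE lie far above wild-type GE, Calb1, Lpar3 and Wnt11 lie with wild-type GE, and Mme lies below both.

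Genes of mucosal defence stood far above both wild-type epithelia. Of 22 members tested, 19 were higher in U-OEx LE than in wild-type GE and 3 lower, with a median of 4.56, and 19 of 22 were also higher than in wild-type LE, beside 33.5% and 30.9% of all genes. Ltf, the iron-binding protein lactoferrin, had values of 142809, 140411 and 70392 in U-OEx LE, 488, 398 and 417 in wild-type GE and 2453, 445 and 555 in wild-type LE. Dmbt1, a secreted scavenger receptor, was 33132, 35292 and 12258 against 11.5, 12.7 and 1.68. Nos2, the inducible nitric oxide synthase, was 9006, 2646 and 8271 against at most 13.5. No library of U-OEx LE overlapped the glands for these 3 genes.

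The membrane mucin Muc4 was 25506 ± 6323 against 232 ± 20.1, and the complement component C3 38617 ± 8210 against 1142 ± 696. The neutrophil attractant Cxcl5 was 13771, 1926 and 8064 in U-OEx LE against at most 33.6, and Il1rn, the interleukin 1 receptor antagonist, 2931 ± 1181 against 18.4 ± 11.8. For Nos2 and Cxcl5, U-OEx LE replicate 2 was the lowest library, as it was for Ptprc and S100a8. The leukocyte list had 5 of 10 tested members higher (50%), 1 lower (10%) and 4 that did not pass, beside 33.5% and 37.7% of all genes. Its sums were 6226 to 9866 in U-OEx LE, 3933 to 5225 in wild-type GE and 1665 to 2566 in wild-type LE. The part of leukocytes in the defence genes was not tested. The 3 lower members were Cxcl15, Lyz1 and Lyz2; Lyz1, a lysozyme, had 1.03, 0 and 4.32 against 687 to 1251 in the glands.

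All 15 tested genes of the cell cycle were higher in U-OEx LE than in the glands, beside 33.5% of all genes. Mki67, a marker of dividing cells, had values of 3634, 4400 and 4672, against 225, 257 and 184 in wild-type GE and 73.5, 43.8 and 36.9 in wild-type LE (4.25 ± 0.17, limma adjusted p = 7.3e-07). Ccnb1, a mitotic cyclin, was 760 ± 82.9 against 32.9 ± 12.5. Tyms, which makes thymidylate, was the member least above the glands (2.14 ± 0.15) and equalled the wild-type lumen within the spread, at 859 ± 71.4 against 912 ± 302.

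Of 20 tested genes of the Notch pathway, 7 were higher than in the glands, 6 lower and 7 did not pass (median -0.05). These shares, 35% and 30%, lie near the 33.5% and 37.7% of all genes. Notch3, another receptor of the family, had values of 1657, 2733 and 1441 in U-OEx LE and 659, 917 and 1004 in wild-type GE, with no overlap (1.14 ± 0.27, limma adjusted p = 0.0051). Notch2 was 1915 ± 28.6 against 403 ± 92.5. Of the target repressors, Hey1 was 994, 1453 and 1116 against 323, 303 and 488 (1.69 ± 0.23, limma adjusted p = 2.7e-04), Hey2 was lower at 19.5 ± 1.95 against 70.7 ± 3.18, and Heyl was uneven in U-OEx LE with 149, 831 and 105 against 103, 181 and 178 and did not pass (0.65 ± 0.70, adjusted p = 0.43).

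Hey1 and Heyl stood above the wild-type lumen by 3.81 ± 0.56 and 5.61 ± 0.77 (limma adjusted p = 8.7e-04 and 6.4e-04), while Hey2 was lower there as well (-3.48 ± 0.37). Numbl, an inhibitor of the pathway, was 79.5 ± 18.1 in U-OEx LE, below the 1183 ± 76.4 of the glands and the 397 ± 135 of the wild-type lumen. Cdkn1a, a cell cycle inhibitor that Notch signalling can induce, was 547 ± 200 against 176 ± 48.7 in the glands (1.59 ± 0.32, limma adjusted p = 0.0023).

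In the Wnt pathway, 12 of 23 tested members were higher, 6 lower and 5 did not pass (median 1.02), so 52.2% were higher and 26.1% lower, beside 33.5% and 37.7% of all genes. Among the genes that Wnt signalling switches on, Sp5 had values of 764, 609 and 1032 in U-OEx LE against 262, 349 and 240 in the glands and at most 4.34 in the wild-type lumen. The transcription factors Lef1 and Tcf7 were higher as well, at 199 ± 49.1 against 56.1 ± 29.4 and 483 ± 146 against 124 ± 37.7. Axin2 lay below the glands at 1142 ± 280 against 2001 ± 566 (-0.81 ± 0.25, limma adjusted p = 0.020), and this call was lost without wild-type GE replicate 3 (adjusted p = 0.073) or U-OEx LE replicate 1 (0.063).

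Fluid transport divided by gene. Of 15 tested members, 9 were higher, 5 lower and 1 did not pass (median 1.52); the 33.3% lower is near the 37.7% of all genes, and 33.5% of all genes were higher. Aqp8, a water channel of the glands, had 0 reads in U-OEx LE and was at least 216-fold lower than the 299 to 965 of wild-type GE. Aqp4, another water channel, had 0 reads in wild-type GE and values of 9802, 3658 and 5500 in U-OEx LE, which is at least 2335-fold above it. The channels Cftr, for chloride, and Scnn1a, for sodium, kept the luminal level: Cftr was 377 ± 142 in U-OEx LE and 317 ± 39.8 in wild-type LE against 3.03 ± 0.70 in the glands, and Scnn1a 1052 ± 299 and 828 ± 360 against 136 ± 52.8. Kcnn4, a calcium-activated potassium channel, was above both at 1013 ± 154 against 7.02 ± 3.17 and 54.1 ± 58.0.

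Of 24 tested proteases and inhibitors, 10 were lower, 11 higher and 3 did not pass (median -0.18), or 41.7% and 45.8%, beside 37.7% and 33.5% of all genes. Against the losses of Prss29 and Spink1, the kallikreins Klk10 and Klk11 had 0 reads in wild-type GE and means of 2635 and 1147 in U-OEx LE, at least 973-fold and 424-fold higher. Prss22, a tryptase, was 1987 ± 610 against 3.60 ± 1.58, and Slpi, a secreted inhibitor of leukocyte proteases, 880 ± 427 against 6.02 ± 2.66. Prss12, the protease neurotrypsin, was 9.09 ± 8.72 against 1796 ± 258. Besides Aqp4, Klk10, Klk11 and Dmbt1, the 10 genes furthest above the glands were Lemd1, Sprr2b, Ccdc33, AC122397.1, Gpa33 and Adora1. Gpa33, a surface antigen of the gut epithelium, had 0 reads in wild-type GE and values of 760, 962 and 673 in U-OEx LE, which is at least 295-fold above it.

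Steroid receptors were below the gland level. Esr1, the oestrogen receptor, had values of 2897, 2903 and 2061 in U-OEx LE and 12294, 12853 and 14674 in wild-type GE, without overlap (-2.35 ± 0.17, limma adjusted p = 8.4e-06), and did not pass against the wild-type lumen (-0.50 ± 0.23, adjusted p = 0.099). Pgr, the progesterone receptor, was 861 ± 76.8 against 1499 ± 193 and 3200 ± 1429 in the lumen. Over the list of steroid-responsive genes, 11 of 21 were lower (52.4%), 8 higher (38.1%) and 2 did not pass (median -0.79), beside 37.7% and 33.5% of all genes. Igf1, also a stromal product, was 21.4 ± 9.85 against 2452 ± 448. In prostaglandin metabolism, where 4 of 14 were lower (28.6%), 5 higher (35.7%) and 5 did not pass (median 0.52), beside the same shares of all genes, the synthases Ptgs2 and Ptges stood far above the glands at 3617 ± 1042 against 56.7 ± 20.2 and 2720 ± 603 against 62.7 ± 23.3. Hpgd, which breaks prostaglandins down, was 373 ± 112 against 1885 ± 120.

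Markers of stroma, smooth muscle and endothelium were nearly all lower in U-OEx LE, with medians further below 0 than the -2.87 of the gland markers. Of 17 stromal markers, 15 were lower in U-OEx LE and 2 higher (median -6.18), of 10 smooth muscle markers, 9 were lower and 1 did not pass (-5.75), and of 16 endothelial and mural markers, 15 were lower and 1 higher (-4.68). Of all genes tested, 37.7% were lower and 33.5% higher. The leukocyte list had a median of 1.03. Myh11, the myosin of smooth muscle, was 8.80 ± 4.28 against 1195 ± 408, and Cdh5, the cadherin of endothelium, 17.9 ± 9.02 against 854 ± 162. The 2 stromal markers that were higher were Wnt4, which epithelium can also express, and Postn. Wnt4 was 1396 ± 288 against 694 ± 180 (1.02 ± 0.23, limma adjusted p = 0.0047), a call lost in 1 fit over the 9 libraries (adjusted p = 0.11). Postn, a matrix protein, had values of 12565, 23144 and 6772 against 526, 1302 and 415. General epithelial markers differed less, with a median of 0.56 and a range from -1.32 to 3.75. Of 7 tested, 4 were higher (57.1%), 1 lower (14.3%) and 2 did not pass. Their sums were 45080 to 61345 in U-OEx LE, above the 29734 to 31786 of wild-type GE and below the 95322 to 107043 of wild-type LE. Against wild-type LE, 4 of the 7 were lower and 0 higher, beside 25.6% and 30.9% of all genes. Cdh1, the epithelial cadherin, was near equal in U-OEx LE and wild-type GE at 8322 ± 1735 against 7937 ± 640.

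Genes of these other cells are part of the class higher in wild-type GE. The members of the marker lists of stroma, smooth muscle, endothelium, leukocytes, red blood cells and ciliated cells were then left out. Without them, 1867 of 3388 gland genes were lower in U-OEx LE and 543 higher. The lower ones are 55.1%, beside 55.5% of the whole class. The lists hold only a small share of the genes that such cells express, and the part of the remaining ones in the shortfall was not tested.

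**Figure D5:**
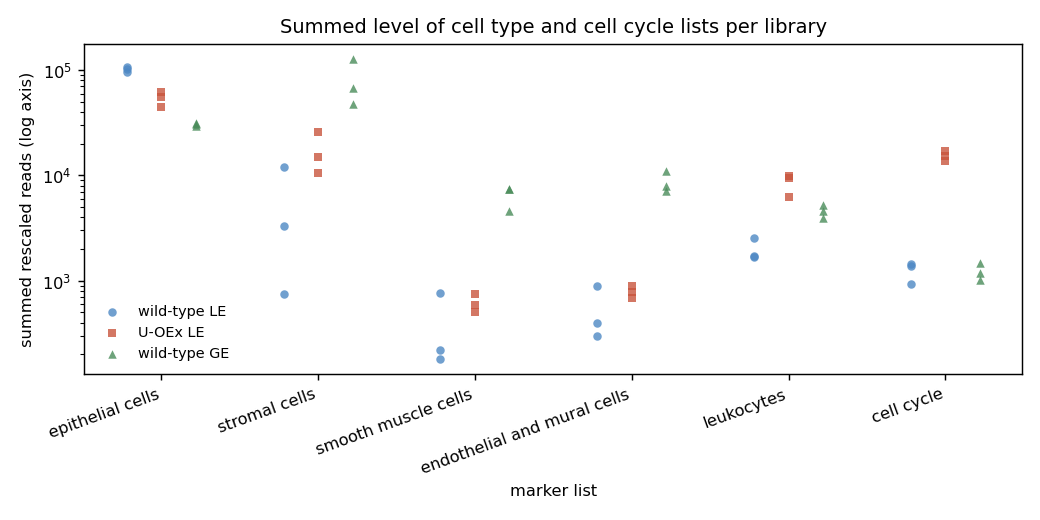
Summed rescaled reads of the cell type and cell cycle lists in each library, on a log axis, in the 3 groups; points are libraries. The stromal, smooth muscle and endothelial sums are highest in wild-type GE, and the leukocyte sums are highest in U-OEx LE.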

How the data were processed

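Per the labels' protocols, total RNA from uterine epithelium was purified on RNeasy columns and made into libraries with a NEBNext Ultra kit. The deposited values are a signal per gene, read counts that the authors divided by 1 factor per library: in every library 100% of values were whole multiples of 1 step, within 0.01. GRCm38 (mm10) is named in the submitters' processing notes; the aligner, counter, annotation and scaling method are not given in the sources used here. Reads were recovered by dividing by that step, and the 9 libraries of the 3 groups were rescaled together on the 6204 shared genes by TMM normalization (edgeR 4.0.16). Of the shared genes, 308 are unannotated and are not named.

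The main test was limma (version 3.58.1, with trend) on log2(value + 1), for genes with a mean of at least 1, with Benjamini-Hochberg adjustment over all genes tested. It was checked on simulated data. Replicates differed by more than sampling noise, with a chi-square of 16.9 to 182 per degree of freedom. A group at 0 reads was set at 3 reads per library for bounds, which cover counting error only. Named genes are members of fixed lists, the 10 largest differences each way without overlap, the 15 most read gland genes and the 10 most read higher genes, plus those stated to be chosen on their values. The members and lists were chosen with earlier results of these data known. Alternatives in pseudocount, filter, scaling, tool (edgeR, DESeq2 1.42.0), samples and replicates were run. Values of a few single genes are not reported here.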

Additional observations from a re-analysis of the deposited data

How the results depend on the processing

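The counts of called genes stayed within 1.5 times the main value under every alternative run: another pseudocount (0.1), no filter, 3 other scalings, edgeR, DESeq2, 1 fit over the 9 libraries, and each library left out. For U-OEx LE against wild-type GE they ran from 3870 (without wild-type GE replicate 1) to 4292 (deposited scale), against 4284. Against wild-type LE, the main fit called 1851 higher and 1529 lower, and that split depended on the method. It was 1609 and 1625 with edgeR, 1671 and 1679 with quantile normalization, and 1646 and 1839 with DESeq2. In the other alternatives more genes were higher than lower. The median position of gland genes was 0.406 on the deposited scale, against 0.469 after joint rescaling, a move larger than the spread between libraries (SD 0.0228). The replicate numbers do not pair the libraries: the deviations of same-numbered U-OEx LE and wild-type GE libraries correlated at 0.036, -0.007 and -0.075. With the replicate block, 4155 genes were called, 1951 higher and 2204 lower, 2400 among the gland genes, 1755 among the lumen genes and 3160 against wild-type LE. Single genes were checked in this way only against wild-type GE, and their calls against wild-type LE were not. Over the 110 named genes and 15 alternatives, 1623 of 1650 values kept their side of the threshold, with the same direction where called. No value that was called in the main or the alternative fit changed direction. The direction of genes that passed in neither was not counted. There were 21 calls lost, over 7 genes, and 6 gained, over 5 genes. Of these genes, Foxj1 (lost) and Dnah5 and Hydin (gained) are ciliated markers, and the others are named in the report. Wild-type tables hold selected genes, so their full depth is not known, and genes outside both lists were not analysed here.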

Other observations

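Ciliated cells and red blood cells are described here because the levels of their markers are not given above. Of 3 tested ciliated markers, Foxj1, the factor that drives cilium formation, was lower in U-OEx LE than in wild-type GE, at 7.20, 26.7 and 3.24 against 53.9 ± 25.7 (limma adjusted p = 0.015), and 2 did not pass. The Foxj1 call was lost without wild-type GE replicate 2 (limma adjusted p = 0.064). The cilium genes Dnah5 and Hydin, at means of 5.92 and 2.50 in U-OEx LE and 7.27 and 7.59 in wild-type GE, had reads mainly in wild-type LE (321 ± 72.0 and 546 ± 225). Against wild-type GE, Dnah5 passed without U-OEx LE replicate 2 (log2 difference -3.02, limma adjusted p = 0.00096) and Hydin without U-OEx LE replicate 3 (-2.41, 0.017). All 3 tested red blood cell markers were lower in U-OEx LE, beside 37.7% of all genes. Alas2, which starts haem synthesis in red cells, was 12.2 ± 6.54 against 204 ± 31.3.

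Among the most read genes that were higher in U-OEx LE than in wild-type GE, Plat, the tissue plasminogen activator, had values of 23595, 21828 and 25377, against 2440, 2974 and 2293 in the glands and 6533 ± 1278 in the wild-type lumen. All 3 U-OEx LE libraries lay above both references. Tmsb4x, an actin-binding peptide, stood between them at 20257 ± 1446, with 4408 ± 259 in the glands and 29726 ± 2928 in the lumen. The fatty acid desaturase Scd2 was 22097 ± 4206 against 9516 ± 658 in the glands and did not pass against the lumen's 26766 ± 9985 (limma adjusted p = 0.55).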
